A study of Mus musculus with 6 samples.

Results

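The leukocyte integrin genes comprised 10 of the 26110 genes listed in the deposited expression table: Itgam, Itgax, Itgal, Itgad, Itgae, Itga4, Itga1, Itga9, Itgb2 and Itgb7. They were taken by gene symbol, without regard to their values. RNA came from MHCII hi cells of the muscularis externa (ME, the muscle layer of the gut wall) of the small bowel, sorted into a CX3CR1- and a CX3CR1+ population, with 3 bulk RNA-seq libraries each. All mice were untreated and carried the same genotype, CX3CR1+/GFP, in which a GFP reporter replaces 1 copy of the gene for the chemokine receptor CX3CR1. The study used female mice on a C57BL/6 background, and no age is given in the sources used here. For each population the ME of 6 mice was pooled, and it is not stated whether each library had its own pool, so the error given here is the spread between libraries and may be technical. The account of the sort names MHCII and CX3CR1, and elsewhere the study describes these cells as CD45+, that is, as leukocytes. The study also stained CD11b, CD11c and CD103 protein by flow cytometry, which was not analysed here, and a bulk RNA value does not give the share of cells that carry a chain. Replicates 1, 2 and 3 of a population are numbered by ascending library number.

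Integrins are adhesion receptors built from an alpha and a beta chain, and only the assembled pair is carried to the cell surface. Leukocytes use the beta2 chain (CD18, Itgb2) with 4 alpha chains, CD11a (Itgal), CD11b (Itgam), CD11c (Itgax) and CD11d (Itgad), to bind cell adhesion molecules and complement fragments. The beta7 chain (Itgb7) pairs with CD103 (Itgae), which binds E-cadherin on epithelium, or with alpha4 (Itga4), which binds the gut addressin MAdCAM. The alpha4, alpha1 (Itga1) and alpha9 (Itga9) chains also pair with the widely expressed beta1 chain (Itgb1), for VCAM and fibronectin, for collagen, and for tenascin and other matrix proteins, respectively. In the gut, CD11b, CD11c and CD103 are the surface proteins by which macrophages and dendritic cells are commonly sorted.

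On GRCm38, in GENCODE release M21, the genes of the 4 alpha chains of beta2 lie on chromosome 7 in the same orientation. Itgal spans chr7:127296260-127335138, Itgam chr7:128062640-128118491, Itgax chr7:128129547-128150657 and Itgad chr7:128154376-128223816. Itgax starts 11.1 kb after the end of Itgam, and Itgad 3.72 kb after the end of Itgax. Itgb2 lies at chr10:77530252-77565708, Itgae at chr11:73090583-73147446, Itga4 at chr2:79255426-79333123 and Itga9 at chr9:118606690-118901003, all on the plus strand. Itga1 at chr13:114953096-115101964 and Itgb7 at chr15:102215995-102231944 lie on the minus strand.

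The RefSeq promoter table on GRCm38.p6 held 6 of the 10 genes (not Itgal, Itgad, Itgae and Itgb2), and for 5 of them its start lay within 100 bases of the GENCODE start, Itga9 being the exception. The upstream 250 bases are shown for 2 pairs of genes: the neighbours Itgam and Itgax, and the partner chains Itga4 and Itgb7. Capitals mark the letters GAGGAA, the core of sites for the myeloid factor PU.1, or TGTGGT, the core of sites for RUNX factors, each on either strand (TTCCTC and ACCACA on the other strand). The windows are chr7:128062390-128062639 for Itgam, chr7:128129300-128129549 for Itgax and chr2:79255176-79255425 for Itga4, on the plus strand, and chr15:102231936-102232185 for Itgb7, on the minus strand.
Itgam: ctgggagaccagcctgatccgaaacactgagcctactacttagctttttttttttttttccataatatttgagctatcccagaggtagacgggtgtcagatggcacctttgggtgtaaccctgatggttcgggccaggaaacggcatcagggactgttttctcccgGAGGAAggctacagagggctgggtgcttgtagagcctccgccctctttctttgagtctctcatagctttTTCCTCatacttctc
Itgax: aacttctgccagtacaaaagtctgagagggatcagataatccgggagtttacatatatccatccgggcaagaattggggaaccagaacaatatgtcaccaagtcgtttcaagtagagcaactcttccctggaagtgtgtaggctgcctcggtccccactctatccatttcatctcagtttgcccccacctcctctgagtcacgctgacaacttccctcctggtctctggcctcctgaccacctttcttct
Itga4: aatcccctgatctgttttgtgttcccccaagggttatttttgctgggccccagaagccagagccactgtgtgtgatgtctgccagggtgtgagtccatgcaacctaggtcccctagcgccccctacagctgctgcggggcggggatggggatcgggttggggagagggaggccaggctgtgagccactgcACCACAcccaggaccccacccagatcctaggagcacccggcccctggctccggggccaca
Itgb7: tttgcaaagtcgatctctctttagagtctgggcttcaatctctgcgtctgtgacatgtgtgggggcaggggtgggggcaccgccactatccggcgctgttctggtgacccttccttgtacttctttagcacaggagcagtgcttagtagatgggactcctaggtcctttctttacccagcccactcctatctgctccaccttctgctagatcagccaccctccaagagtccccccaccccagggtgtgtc
GAGGAA occurred in 23.3% of the 32851 promoters of the same length, and of the 5 genes searched only Itgam held it, with 2 matches. TGTGGT occurred in 14.0% of the promoters, and of the 5 genes only Itga4 held it, with 1 match. A match describes the letters of the window, not a bound site.

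Library depth, estimated from the value taken to stand for a single read, ranged from 5346381 to 17616761 reads and overlapped between the populations. The normalized value that corresponds to 3 reads, used as the limit of measurement, ranged from 1.39 to 5.36. The share of mitochondrial genes was 47.5 to 54.9% of all signal in CX3CR1- and 18.1 to 21.2% in CX3CR1+ libraries. Over all genes tested, CX3CR1- replicates 1, 2 and 3 had mean Euclidean distances of 153, 161 and 154 (log2 values) to the others of their group, replicate 2 lying farthest, against 96.5 to 99.6 among CX3CR1+ libraries. Cx3cr1 itself lay between 18.9 and 28.5 in CX3CR1- and between 347 and 380 in CX3CR1+ libraries, in the direction of the labels. The sample labels call all cells dendritic cells, whereas the study calls them macrophages. Of 8 macrophage markers, all 8 were lower in CX3CR1- cells (sum 5372 to 6563 against 27885 to 31022), and of 4 markers of conventional dendritic cells, all 4 were higher (sum 1149 to 1330 against 94.2 to 138). Markers of other cells also differed between the populations, and their values are given beside the integrins they move with. In bulk RNA, fewer cells of a type and less RNA per cell cannot be told apart.

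Of the 10 genes, 9 averaged at least 10 across the 6 libraries and were tested with limma on log2(value + 1), with Benjamini-Hochberg adjustment over all 17812 genes tested. Calls required a difference of 2-fold or more together with an adjusted p no larger than 0.05. Log2 fold changes are CX3CR1- over CX3CR1+, so that genes higher in CX3CR1- cells have positive values. Of these 9, 5 genes, Itgae, Itgb7, Itga1, Itgax and Itgal, were called higher in CX3CR1- cells, against 12.2% of all genes tested. Itga9 alone was called lower, against 8.15% of all genes tested. Itgam, Itga4 and Itgb2 were not called. The groups did not overlap for 8 of the 9, against 40.0% of all genes tested, and the exception was Itgam. The median log2 fold change of the 9 genes was 1.18 and the median of its absolute value was 2.06, beside 0.00 and 0.58 over all genes tested.

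**Figure D1:**
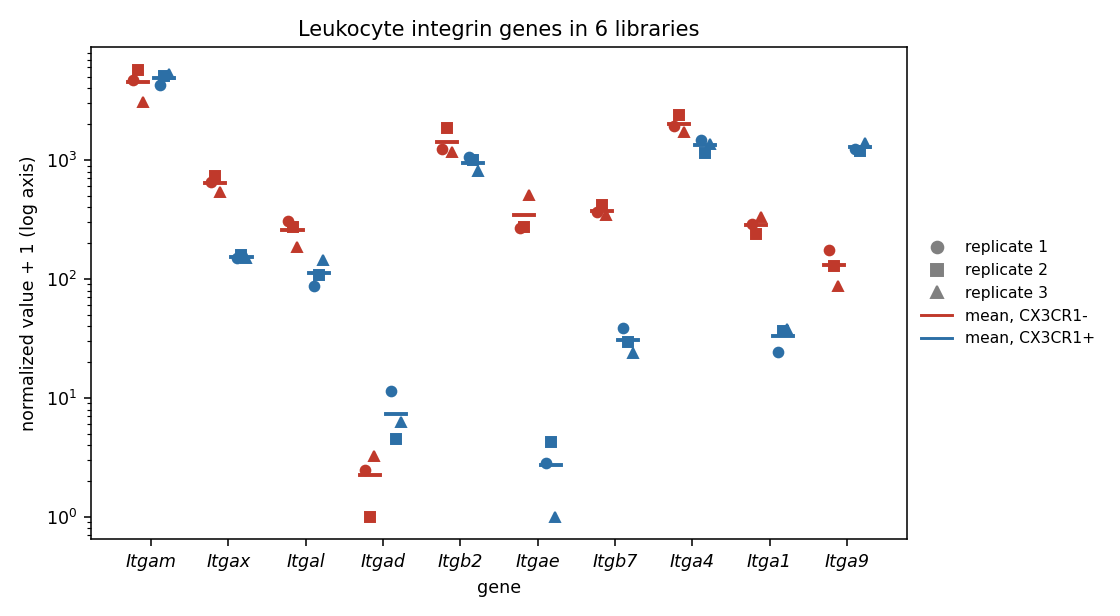
Normalized value + 1 (log axis) of the 10 leukocyte integrin genes (x axis) in the 3 CX3CR1- (red) and 3 CX3CR1+ (blue) libraries, with a symbol for each replicate and a line at each group's mean. Itgae, Itgb7, Itga1, Itgax and Itgal lie higher in every CX3CR1- library, Itga9 lies higher in every CX3CR1+ library, and the groups overlap for Itgam.

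Among the alpha chains of beta2, Itgax and Itgal were higher in CX3CR1- cells, whereas Itgam did not differ beyond the spread between libraries. Itgam, which encodes CD11b, was at 4740, 5744 and 3082 in CX3CR1- replicates 1, 2 and 3 and at 4252, 5137 and 5259 in the CX3CR1+ replicates. The CX3CR1- libraries enclosed those of CX3CR1+, with the lowest and the highest value of all 6. Its means were 4522 ± 1344 and 4883 ± 549 (SD, n = 3 each), and its log2 fold change was -0.15, with a 95% interval from -0.63 to 0.33 and an adjusted p of 0.668 (limma). That interval does not reach a 2-fold difference in either direction. The sign was not stable: the value was 0.37 after quantile normalization and 0.10 without CX3CR1- replicate 3. In the reference transcripts, 67.2% of the 31-base words of Itgam also occur in Gm49368, a gene model that overlaps it on the same strand, so the division of reads between these genes is uncertain. A further row with the symbol Itgam held 12.9, 1.91 and 87.8 in CX3CR1- and 46.1, 31.1 and 15.1 in CX3CR1+ libraries, at most 2.85% of the first row in any library, and it was not called (log2 fold change -0.92, adjusted p = 0.571 in limma).

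Itgax, the CD11c chain that is used as a marker of dendritic cells and is also found on many gut macrophages, was at 658, 740 and 538 in CX3CR1- and at 149.9, 157 and 150.0 in CX3CR1+ libraries. Every CX3CR1- library lay above every CX3CR1+ library, and the latter lay close together. The means were 645 ± 102 and 152 ± 4.29 (SD, n = 3 each), a 4.23-fold difference with a log2 fold change of 2.06 (SE 0.20, adjusted p = 6.19e-05, limma). Itgax shares 10.7% of its 31-base words with Itgad, and no such word with Itgam.

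Itgal, the CD11a chain of LFA, which binds ICAMs, was at 306, 274 and 185 in CX3CR1- and at 87.0, 106 and 143 in CX3CR1+ libraries. The groups did not overlap, but CX3CR1- replicate 3 and CX3CR1+ replicate 3 lay near each other. The means were 255 ± 62.7 and 112 ± 28.5 (SD, n = 3 each), with a log2 fold change of 1.18 (SE 0.28, adjusted p = 0.0129, limma). Without CX3CR1+ replicate 1 the log2 fold change was 1.01 and the adjusted p was 0.0585, so the call rests on that library.

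Itgad, the CD11d chain found on some tissue macrophages, was the gene of the 10 that was too low to be tested. It was at 1.50, 0 and 2.24 in CX3CR1- and at 10.3, 3.54 and 5.25 in CX3CR1+ libraries. All 3 CX3CR1- values lay under the level of 3 reads of their library, whereas all 3 CX3CR1+ values lay above it. The CX3CR1+ mean was 1.67 times the mean of that level over the CX3CR1- libraries, with CX3CR1+ replicate 1 well above the others. CX3CR1+ replicates 2 and 3 lay under the level of 3 reads in CX3CR1- replicate 2 (5.36), so no lower bound of the difference follows. The CX3CR1+ values themselves rest on about 22.4, 4.31 and 3.71 reads.

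Itgb2, the beta2 chain that these 4 alpha chains need to reach the surface, was at 1244, 1848 and 1170 in CX3CR1- and at 1057, 995 and 804 in CX3CR1+ libraries. The groups did not overlap, although 2 of the 3 CX3CR1- values lay close to the highest CX3CR1+ value. The means were 1420 ± 372 and 952 ± 132 (SD, n = 3 each), and the log2 fold change of 0.56 (95% interval 0.09 to 1.02) had an adjusted p of 0.0827 in limma and was not called.

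Levels of different chains were compared per kilobase of the longest annotated transcript. Itgam made up 81.8 ± 2.17% (SD, n = 3) of the summed per-kilobase level of the 4 alpha chains of beta2 in CX3CR1- cells, against 94.5 ± 0.319% (SD, n = 3) in CX3CR1+ cells. Itgax made up 13.9 ± 1.89% and 3.44 ± 0.368%, and Itgal 4.21 ± 0.587% and 1.93 ± 0.324% (SD, n = 3 each). Itgam was thus the most abundant transcript of this set per kilobase in all 6 libraries, with a smaller share in each CX3CR1- library. The groups did not overlap for any of the 4 shares, and the exact two-sided permutation test gave p = 0.1 for each (0.1 after adjustment over the 4), the smallest that 3 libraries against 3 allow. The per-kilobase ratio of Itgax to Itgam was 4.66-fold higher in CX3CR1- cells, with a log2 ratio of -2.56 ± 0.228 against -4.78 ± 0.155 (SD, n = 3 each, exact permutation p = 0.1, and 0.167 adjusted over the 5 ratios computed). The log2 ratio of the summed alpha chains to Itgb2 was 1.29 ± 0.249 in CX3CR1- and 1.79 ± 0.348 in CX3CR1+ libraries (SD, n = 3 each), with overlapping groups and an exact permutation p of 0.2 (0.25 adjusted).

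**Figure D2:**
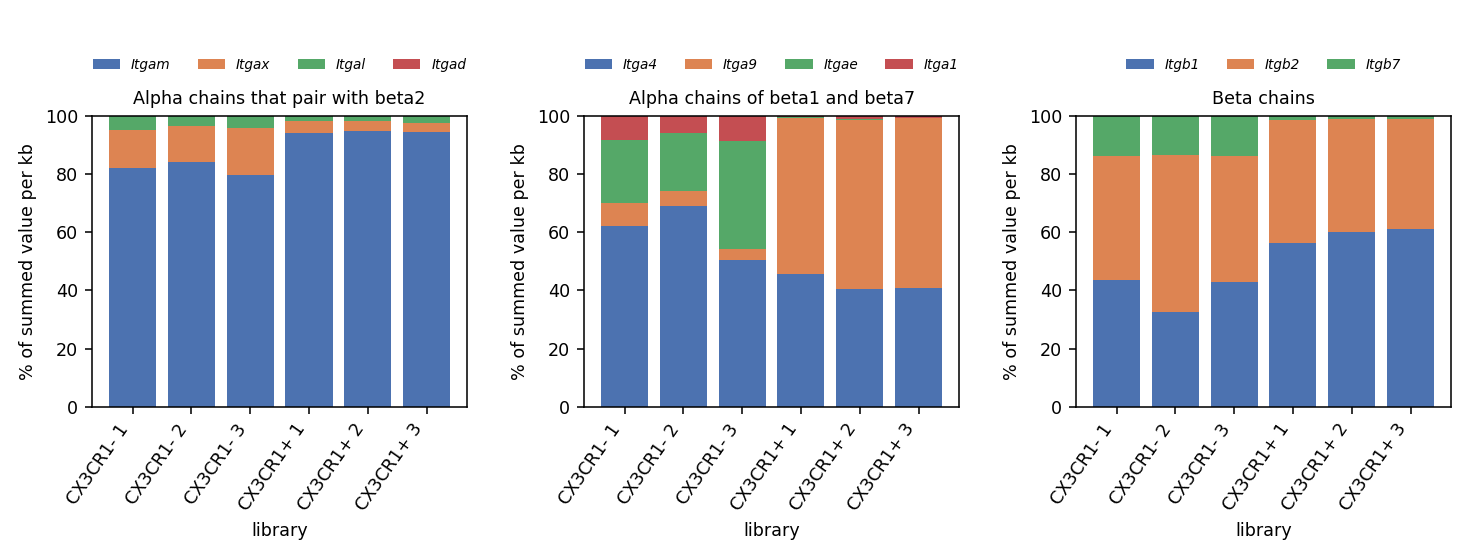
Share of each chain (stacked bars, % of the summed value per kilobase, y axis) in each library (x axis), for the alpha chains that pair with beta2 (left), for alpha chains of beta1 and beta7 (middle) and for the beta chains (right). Itgam takes 79.6 to 83.9% of the left panel in CX3CR1- and 94.2 to 94.8% in CX3CR1+ libraries, and Itga9 takes 3.53 to 7.81% and 53.7 to 58.2% of the middle panel, while Itgad is too low to be seen.

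Transcripts of both chains of the CD103 receptor were higher in CX3CR1- cells, and these were the largest differences among the 9 genes. Itgae was at 267, 272 and 504 in CX3CR1- and at 1.85, 3.29 and 0 in CX3CR1+ libraries. It was near the limit of measurement in the CX3CR1+ population, where about 8 reads were assigned to it in all 3 libraries together. The means were 347 ± 135 and 1.71 ± 1.65 (SD, n = 3 each), a ratio of 202, for which the counting error of those 8 reads alone gives an exact 95% interval from 103 to 469. The log2 fold change was 7.17 (SE 0.57, adjusted p = 1.76e-05, limma), which ranked 60 of 17812 by its absolute value. With pseudocounts of 10 and 0.5 the log2 fold change was 4.88 and 7.66.

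Itgb7, the partner of CD103 and of alpha4, was at 364, 417 and 342 in CX3CR1- and at 37.5, 28.7 and 22.7 in CX3CR1+ libraries. The groups were far apart, and the CX3CR1- libraries varied little, with an SD of 10.2% of the mean. The means were 374 ± 38.3 and 29.6 ± 7.44 (SD, n = 3 each), a 12.6-fold difference (log2 fold change 3.64, SE 0.27, adjusted p = 1.32e-05, limma). None of the 31-base words of Itgb7 occurs in another gene.

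Cells other than macrophages can carry CD103 or beta7, and several of their markers differed as well. Of 5 markers of cDC1, the dendritic cells that cross-present antigen, Xcr1 and Clec9a were higher in CX3CR1- cells and 3 were not called, with a summed value of 2261 to 3009 against 1293 to 1356. All 3 markers of cDC2, the other conventional subset, were higher (sum 1954 to 2081 against 383 to 447). Of 10 markers of T, NK and intraepithelial lymphocytes, 6 were tested, with 3 higher (Cd8a, Gzma, Klrd1) and Cd4 lower (sum 288 to 573 against 584 to 678, of which Cd4 gave 506 to 540 in CX3CR1+ libraries). Cd3e was at 1.99, 16.8 and 33.7 in CX3CR1- and at 2.55, 0.521 and 0 in CX3CR1+ libraries, and Gzma was at 32.4, 16.7 and 195 against 0 in all 3. Of the mast cell markers only Kit was among the genes analysed, and it lay at 382, 133 and 532 in CX3CR1- and at 18.1 to 40.3 in CX3CR1+ libraries. Kit alone does not show that mast cells were present. Among the CX3CR1- libraries, Itgae and Kit were highest in replicate 3, as were 5 of the 10 lymphocyte markers (Cd3d, Cd3e, Cd3g, Gzma and Gzmb), while Cd8a and Klrd1 were highest in replicate 2 and Cd8b1, Cd4 and Nkg7 in replicate 1. Without replicate 3 the log2 fold change of Itgae was 6.87. The part of these cells in the values of Itgae and Itgb7 was not tested.

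The transcript of alpha4 differed far less than that of its beta7 partner. Itga4 was at 1930, 2396 and 1728 in CX3CR1- and at 1464, 1153 and 1364 in CX3CR1+ libraries. Each CX3CR1- library was above each CX3CR1+ library, by a modest margin. The means were 2018 ± 342 and 1327 ± 159 (SD, n = 3 each), and the log2 fold change of 0.60 (95% interval 0.21 to 0.99) had an adjusted p of 0.0317 in limma but stayed under a 2-fold difference, so that Itga4 was not called. Without CX3CR1- replicate 2 the limma adjusted p was 0.0783, and it reached 0.134 with another library left out. After quantile normalization the log2 fold change of Itga4 was 0.99 (adjusted p = 0.00246, limma). With scaling to the total without mitochondrial genes it was 0.77 (adjusted p = 0.00687, limma), and Itga4 was called in neither setting. The per-kilobase log2 ratio of Itgae plus Itga4 to Itgb7 was 1.09 ± 0.159 in CX3CR1- and 3.65 ± 0.344 in CX3CR1+ libraries (SD, n = 3 each, exact permutation p = 0.1, 0.167 adjusted). In CX3CR1+ cells the alpha chains of beta7 thus exceeded Itgb7 by a wider margin than in CX3CR1- cells, and nearly all of them were Itga4. The ratio of Itgae to Itga4 could not be computed in CX3CR1+ replicate 3, where Itgae was listed at 0.

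Transcripts of the collagen receptor chain alpha1 and the matrix receptor chain alpha9 differed in opposite directions. Itga1 was at 291, 236 and 330 in CX3CR1- and at 23.4, 35.7 and 37.0 in CX3CR1+ libraries. The means were 286 ± 47.2 and 32.0 ± 7.51 (SD, n = 3 each), an 8.93-fold difference (log2 fold change 3.13, SE 0.29, adjusted p = 4.27e-05, limma). Alpha1beta1 is found on activated T cells, on fibroblasts and on smooth muscle as well as on macrophages. The 5 smooth muscle markers gave no call (sum 752 to 2131 in CX3CR1- and 1627 to 2247 in CX3CR1+ libraries), whereas the 4 fibroblast markers were all higher in CX3CR1- cells (sum 3086 to 9331 against 148 to 249). Both Itga1 and the fibroblast sum were lowest in replicate 2 and highest in replicate 3 of the CX3CR1- libraries. The T, NK and intraepithelial lymphocyte sum (316, 288 and 573 in replicates 1, 2 and 3), Kit and the neutrophil marker Csf3r had the same order. The relation of Itga1 to these markers was not tested.

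Itga9 was at 174, 127 and 86.7 in CX3CR1- and at 1241, 1191 and 1400 in CX3CR1+ libraries. It was the gene of the 10 with the clearest excess in CX3CR1+ cells, and the populations were far apart. The means were 129 ± 43.9 and 1277 ± 109 (SD, n = 3 each), a 9.88-fold higher level in CX3CR1+ cells (log2 fold change -3.35, SE 0.26, adjusted p = 1.42e-05, limma). Per kilobase, Itga9 made up 5.47 ± 2.17% of the sum of Itga1, Itga4, Itga9 and Itgae in CX3CR1- and 56.7 ± 2.61% in CX3CR1+ libraries (SD, n = 3 each), while Itgae made up 26.3 ± 9.61% and 0.147 ± 0.147%. The sum of Itga1, Itga4 and Itga9 relative to their partner Itgb1 gave a log2 ratio of -0.68 ± 0.242 in CX3CR1- and -0.57 ± 0.247 in CX3CR1+ libraries (SD, n = 3 each), with overlapping groups and an exact permutation p of 0.7 (0.7 adjusted). The shares of Itga9 and Itgae thus differed between the populations. The sum of Itga1, Itga4 and Itga9 over Itgb1, which leaves out Itgae, did not differ beyond the spread. The difference between the populations in that log2 ratio was -0.10, and it turned in sign, to 0.0067, without CX3CR1+ replicate 3.

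Per kilobase, the order of the levels in CX3CR1- cells ran from Itgam (966 ± 287, SD, n = 3) over Itgb2, Itga4, Itgax, Itgb7, Itgae, Itgal, Itga1 and Itga9 to Itgad (0.303 ± 0.278, SD, n = 3). In this order the libraries overlapped between Itga4 and Itgax, between Itgax and Itgb7, between Itgb7 and Itgae, and between Itga1 and Itga9. In CX3CR1+ cells the order ran from Itgam (1043 ± 117, SD, n = 3) over Itgb2, Itga9, Itga4, Itgax, Itgal, Itgb7, Itga1 and Itgad to Itgae (0.446 ± 0.429, SD, n = 3), and only Itga1 and Itgad overlapped. Itga9 thus stood below Itga1 in CX3CR1- cells and above Itga4 in CX3CR1+ cells, and Itgb7 stood above Itgal in CX3CR1- cells and below it in CX3CR1+ cells. Among the 3 beta chains, Itgb7 took 13.7 ± 0.243% of the summed level in CX3CR1- and 1.36 ± 0.259% in CX3CR1+ libraries, Itgb2 took 46.5 ± 6.45% and 39.6 ± 2.29%, and Itgb1 took the rest (SD, n = 3 each). The per-kilobase ratio of Itgb7 to Itgb2 was 8.75-fold higher in CX3CR1- cells (exact permutation p = 0.1, 0.167 adjusted).

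The other integrin subunits, which serve mainly as receptors for matrix, differed in both directions. Of 17 listed, 16 were among the genes analysed and 13 were tested, of which 6 (46.2%) were called higher and 4 (30.8%) lower in CX3CR1- cells, against 12.2 and 8.15% of all genes tested, with a median log2 fold change of -0.25. Where only genes with a mean of at least 50 were tested, 2 were called higher. The genes called higher were Itgb6 (log2 fold change 3.69), Itga3 (3.66), Itga11 (2.95), Itga2 (2.86), Itgb3 (2.81) and Itgb4 (2.02), most of which are known from epithelium, fibroblasts or platelets. Their means in CX3CR1- cells were low, between 29.3 (Itgb4) and 119 (Itgb3). The genes called lower were Itgb5 (log2 fold change -3.04), Itga6 (-2.85), Itgav (-1.60) and Itga8 (-1.19). Itgav, the alpha chain of vitronectin receptors, was at 504 ± 132 in CX3CR1- and 1505 ± 172 in CX3CR1+ cells (SD, n = 3 each), and its partner Itgb5 was at 81.4 ± 80.4 and 495 ± 33.6 (SD, n = 3 each). Itgb1, the common partner of alpha1, alpha4 and alpha9, was at 1525 ± 106 and 1819 ± 159 (SD, n = 3 each) and was not called (log2 fold change -0.25, adjusted p = 0.261, limma). The 4 epithelial markers were all higher in CX3CR1- cells (sum 15077 to 25966, against at most 34.3). The study describes the cells as CD45+, although its account of the sort names MHCII and CX3CR1. The part of epithelial cells in the values of Itgb6, Itga3 and Itgb4 was not tested.

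**Figure D3:**
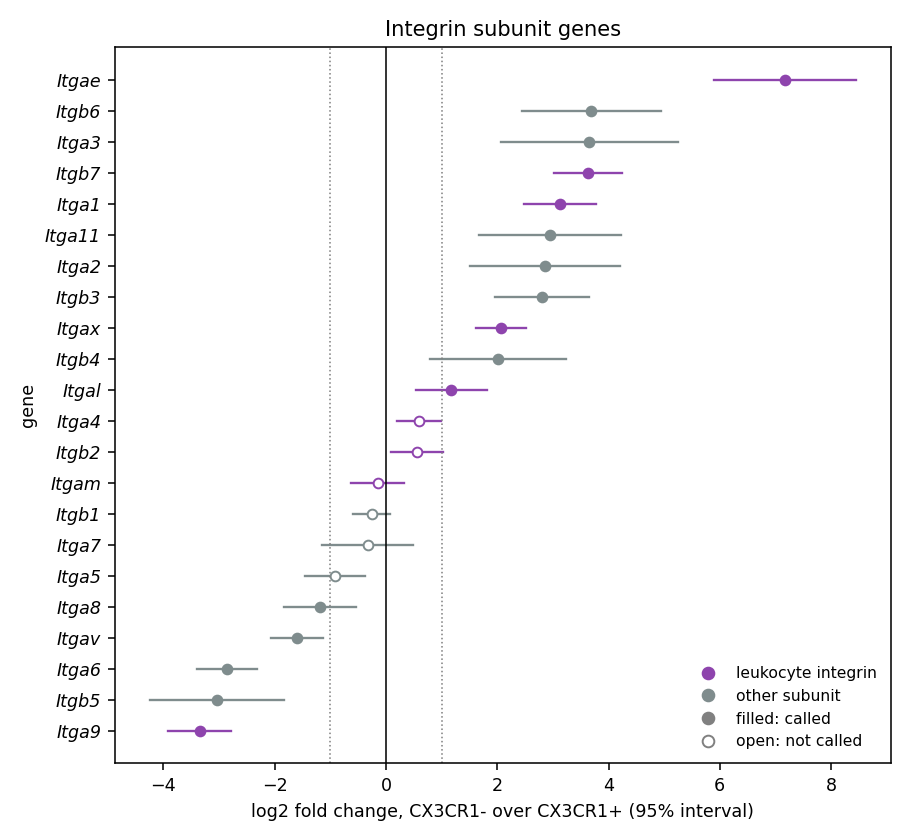
Log2 fold change (x axis, CX3CR1- over CX3CR1+, with 95% interval) of the 22 integrin genes tested (y axis), in purple for leukocyte integrins and grey for other subunits, filled where called, with dotted lines at a 2-fold difference. Itgae lies farthest to the right at 7.17 and Itga9 farthest to the left at -3.35, and 11 genes were called higher and 5 lower.

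Ligands of the leukocyte integrins were mostly higher in CX3CR1- cells, with Vcam1 as the main exception. Of 15 tested, 9 (60.0%) were called higher and 2 (13.3%) lower, against 12.2 and 8.15% of all genes tested, and the median log2 fold change was 2.34. Fn1 (fibronectin, a ligand of alpha4beta1) was at 10503 ± 4669 in CX3CR1- and 218 ± 15.5 in CX3CR1+ cells (SD, n = 3 each, log2 fold change 5.48, adjusted p = 2.69e-06, limma). For Tnc (tenascin, a ligand of alpha9beta1) the log2 fold change was 4.95, for Col1a1 (collagen, for alpha1beta1) 4.32, and for Jam2 (a junctional ligand of alpha4beta1) 3.82. Cdh1, E-cadherin and hence the ligand of CD103, was at 63.2, 135 and 126 in CX3CR1- and at 4.13, 5.10 and 4.22 in CX3CR1+ libraries (log2 fold change 4.24, adjusted p = 9.95e-05, limma). Vcam1, the endothelial and macrophage ligand of alpha4beta1 and alpha9beta1, went the other way, at 169, 198 and 393 in CX3CR1- and at 3412, 2927 and 3385 in CX3CR1+ libraries (log2 fold change -3.77, adjusted p = 1.31e-05, limma). Among ligands of beta2 integrins, Icam2 (2.43) and C3 (2.41) were called higher, whereas Icam1 was at 1402 ± 198 and 1849 ± 306 (SD, n = 3 each) and was not called (log2 fold change -0.40, adjusted p = 0.150, limma). Besides Vcam1, F11r was the ligand called lower. It was at 158 ± 57.6 in CX3CR1- and 426 ± 35.2 in CX3CR1+ cells (SD, n = 3 each, log2 fold change -1.49, adjusted p = 0.00354, limma). Icam4, Fgg and Madcam1 were not analysed here. Tnc and Col1a1 are genes of fibroblasts and Cdh1 is a gene of epithelium, whose marker sums stand above. Fn1 is made by fibroblasts and also by monocytes and macrophages, and it was at 10317, 15263 and 5930 in CX3CR1- replicates 1, 2 and 3, where the fibroblast sum was 5275, 3086 and 9331 and the monocyte sum 2177, 3219 and 1334. Its order over these libraries was thus that of the monocyte sum and the reverse of the fibroblast sum. The eosinophil, conventional dendritic cell and cDC2 sums had the order of the monocyte sum too. The part of such cells in these ligands was not tested.

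Genes that switch integrins on, or tie them to the cytoskeleton, showed no common direction. Of 27 tested, 5 were called higher and 5 lower in CX3CR1- cells (18.5% each, against 12.2 and 8.15% of all genes tested) and 17 were not called, with a median log2 fold change of -0.34. Fgr, a Src-family kinase of myeloid cells, was the highest (157 ± 41.8 against 14.8 ± 12.3, SD, n = 3 each, log2 fold change 3.61, adjusted p = 0.000877, limma), followed by Fermt1 (2.38) and Fermt2 (1.87), kindlins of epithelium and mesenchyme, Vcl (vinculin, 1.96) and Rasgrp2 (1.43), an activator of Rap1. Fyb, an adaptor that couples Rap1 signalling to integrins in leukocytes, was lowest (718 ± 13.3 against 4536 ± 208, SD, n = 3 each, log2 fold change -2.66, adjusted p = 2.69e-06, limma), and Rap1b (-1.27), Vav1 (-1.11) and Parvg (-1.07) were among the others called lower. For Tln1 (talin, which opens the beta chain) the log2 fold change was -0.34 (limma adjusted p = 0.215). For Fermt3, the kindlin of blood cells, it was -0.84 (limma adjusted p = 0.0226), which is under a 2-fold difference. Neither was called.

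**Figure D4:**
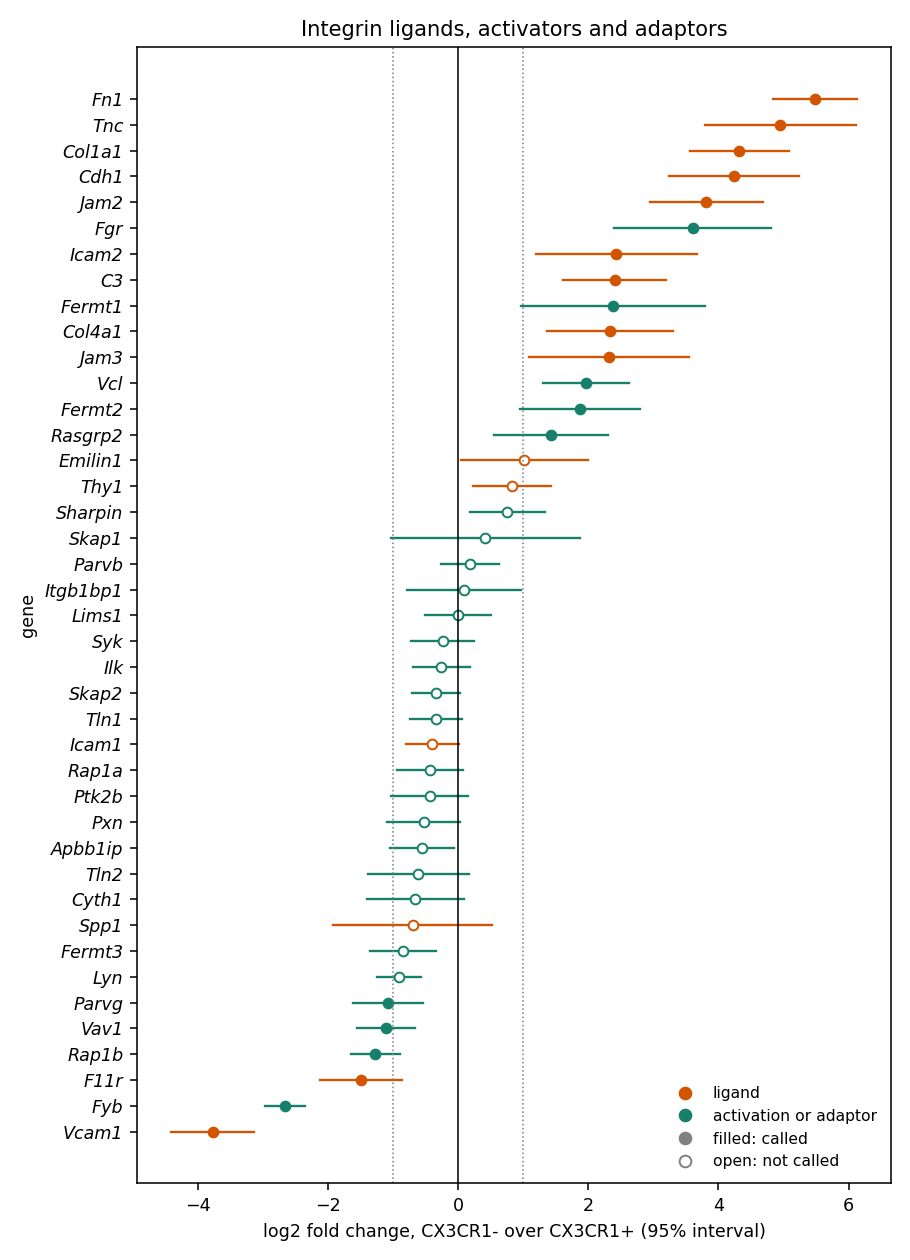
Log2 fold change (x axis, CX3CR1- over CX3CR1+, with 95% interval) of 15 ligand genes (orange) and 26 of the 27 activation or adaptor genes (green) on the y axis, filled where called, with dotted lines at a 2-fold difference. Fn1 lies highest at 5.48 and Vcam1 lowest at -3.77, while 17 of the 27 activation or adaptor genes were not called.

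Other leukocyte classes that carry beta2 integrins were followed by their markers. Of 6 B and plasma cell markers, 5 were higher in CX3CR1- cells (sum 1440 to 3746 against 58.6 to 89.3), with Mzb1 at 0 in all CX3CR1+ libraries. Of 3 monocyte markers, 2 were higher, with Ccr2 among them (sum 1334 to 3219 against 728 to 830). Of the eosinophil markers 3 were listed, of which Siglecf was tested and called higher (sum 21.5 to 80.3 against 3.19 to 6.86). Of the neutrophil markers only Csf3r was analysed, and it was lower in CX3CR1- cells (40.1 to 56.6 against 660 to 1076). Within the CX3CR1- libraries, Itgam, Itgb2, Itgax, Itga4 and Itgb7 were highest in replicate 2 and lowest in replicate 3. The monocyte, eosinophil, conventional dendritic cell and cDC2 sums had the same order, and their relation to these genes was not tested. Without replicate 2 the log2 fold changes were -0.35 for Itgam, 0.35 for Itgb2, 1.96 for Itgax and 1.11 for Itgal, and the same 5 genes were called higher and Itga9 lower.

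**Figure D5:**
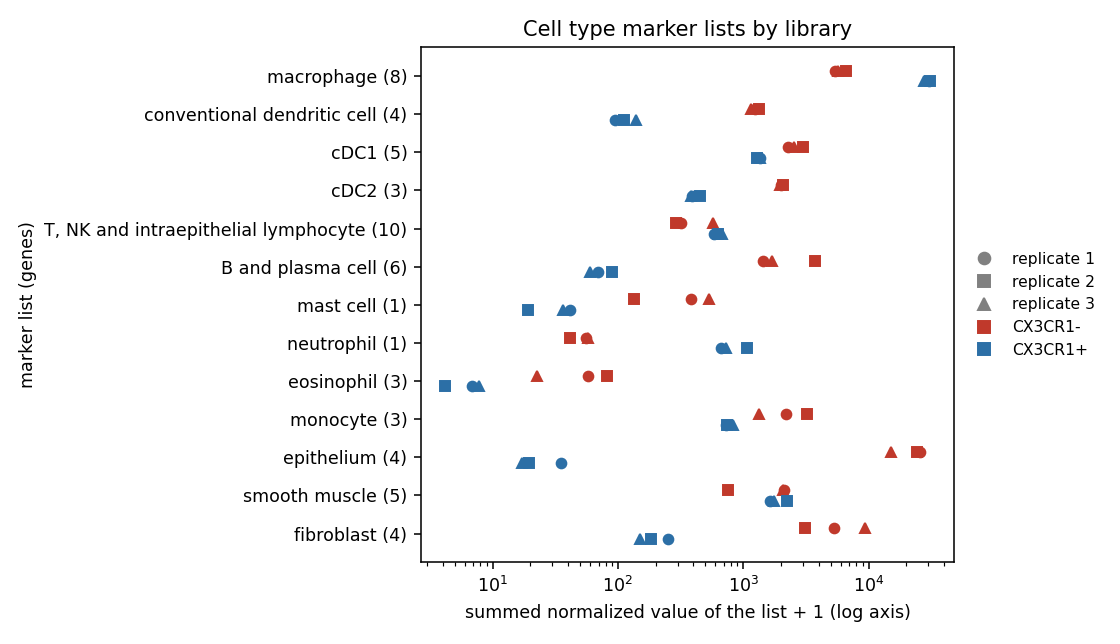
Summed normalized value + 1 (log axis, x) of each cell type marker list (y axis, number of genes in parentheses) in the CX3CR1- (red) and CX3CR1+ (blue) libraries, with a symbol for each replicate. Macrophage markers lie lower in CX3CR1- libraries (5372 to 6563 against 27885 to 31022), whereas epithelial, fibroblast, dendritic cell and B cell sums lie higher.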

How the data were processed

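RNA was measured in 3 CX3CR1- and 3 CX3CR1+ libraries, grouped by the sample labels, and library numbers served as replicate names, none of them common to both populations. The authors pseudoaligned the 75 bp single reads with Kallisto to GENCODE M16 (mm10), imported and summed the estimated counts with tximport and applied the DESeq2 normalization. What they deposited is this normalized signal for 26110 genes. The step that stands for a single read was the commonest value of a library, or that value divided by a small whole number. Only 42.6 to 44.7% of the values were whole multiples of this step (tolerance 0.01 of a step), so no count test was run. Each library's depth was estimated from that step, and it limits precision to a level of 3 reads, for counting error only.

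Genes with a mean of at least 10 were tested with limma 3.58.1 in R 4.3.3 on log2(value + 1), with lmFit and with eBayes using an intensity trend. P-values are two-sided and were adjusted by Benjamini-Hochberg over 17812 genes. The log scale understates the change of low genes. Called genes had a log2 fold change beyond 1 in either direction and an adjusted p up to 0.05. Shares and ratios were tested by exact two-sided permutation (scipy 1.17.1). Where a symbol occurs more than once, as Itgam does, the first row was used. Gene positions, transcript lengths and 31-base words came from GENCODE M21, not the authors' M16, and promoters from RefSeq.

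The members and lists were chosen with earlier results of these data known. The text names every member and, of each other list, the called genes, at most the 6 with the largest absolute log2 fold change per direction, plus Itgb1, Icam1, Vcam1, Madcam1, Cdh1, Fn1, Tln1 and Fermt3. Markers follow a separate list. Some listed genes are counted but not reported by name here. The alternatives were pseudocounts of 0.5 and 10, no filter, a mean of at least 50, quantile normalization, median-of-ratios rescaling, scaling to the total without mitochondrial genes, no trend, library quality weights, the length of the transcript with the longest coding sequence, and leaving out each library. A block of adjacent library numbers was added after the data had been seen. Figures were drawn with matplotlib 3.10.9.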

Additional observations from a re-analysis of the deposited data

How the results depend on the processing

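Across the 9 tested leukocyte integrins, 5 were called higher and 1 lower under each alternative setting, except without CX3CR1+ replicate 1, where 4 were called higher because the log2 fold change of Itgal was 1.01 (adjusted p = 0.0585, limma). Itgam turned in sign, to 0.37 after quantile normalization (adjusted p = 0.219, limma) and to 0.021 with scaling to the total without mitochondrial genes (adjusted p = 0.952, limma). The median over all tested genes moved to -0.15 on the log2 scale with quantile normalization, and to 0.17 with scaling without mitochondrial genes. At a mean of at least 50, 2413 genes were called in all, against 3628. With that filter, 2 other integrin subunits were called higher instead of 6, since fewer genes were tested. Of the activation and adaptor genes, quantile normalization left 3 higher and 3 lower, and scaling without mitochondrial genes left 3 lower, each against 5. The cause was not tested. Itgb2 had an adjusted p of 0.00839 after quantile normalization and 0.0163 with scaling without mitochondrial genes (limma), with fold changes under 2.

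Leaving out each library in turn gave log2 fold changes from -0.35 to 0.10 for Itgam, from 1.01 to 1.39 for Itgal, from 0.47 to 0.70 for Itga4, from 0.35 to 0.68 for Itgb2, and from 3 to 5 activation and adaptor genes higher and from 4 to 7 lower. The log2 ratio of Itga1, Itga4 and Itga9 to Itgb1 differed between the populations by -0.24 to 0.0067. Each CX3CR1- library has a CX3CR1+ library next to it by number, and these 3 neighbours are pairs that neither the labels nor the methods mention. The deviations of adjacent libraries from their group means correlated across genes at 0.10, 0.038 and 0.014, and not every library correlated best with its neighbour. With these pairs as a replicate block, an alternative chosen after seeing the data, 5 leukocyte integrins were called higher and 1 lower, as without it, and 2165 genes were called higher and 1445 lower in all, against 2177 and 1451. The block changed no call of a leukocyte integrin and no list count. The longest coding transcript was also the longest transcript for each gene compared per kilobase, so that alternative left the shares and ratios as they were. Depth limits Itgad, and Itgae in CX3CR1+ cells.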
